A study of Xenopus laevis with 13 samples.

Results

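The genes described here are 10 genes of the Spemann organizer of the African clawed frog *Xenopus laevis*: goosecoid (*gsc*), *lhx1*, *otx2*, *hhex*, chordin (*chrd*), noggin (*nog*), follistatin (*fst*), cerberus (*cer1*), *dkk1* and *frzb*. They were chosen by name, and every gene model of the deposited transcript table that carried 1 of these names was taken, which gave 21 of 54110 gene models. RNA was sequenced from single *X. laevis* individuals, 5 embryos at Nieuwkoop-Faber (NF) stage 10.5 (early gastrula) and 5 fertilized eggs at NF stage 1, which had turned but not cleaved and were taken 60 min after fertilization. A further 3 libraries of stage 10.5 embryos were labelled as technical replicates. All eggs came from a single hormone-injected female and were fertilized in vitro, no treatment or mutation was applied, and the p-values below therefore do not cover variation between females. All stage 10.5 libraries were made with a kit (Kapa Hyper Prep with a USER enzyme step) that no egg library had, so that stage and library preparation cannot be told apart in any comparison of embryo with egg.

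The organizer is the dorsal lip of the amphibian gastrula, the tissue that induces an additional body axis when it is grafted to the ventral side of a host. Maternal β-catenin on the dorsal side and Nodal signals from the vegetal cells switch on its transcription factors, and the cells then release proteins that bind BMP, Wnt and Nodal ligands outside the cell. Dorsal mesoderm and neural plate form where BMP ligands are held off, and the anterior part of the organizer, which blocks all 3 kinds of ligand, is known for inducing the head. Because most of these genes are silent until the zygotic genome is switched on, the egg serves as a baseline for what the mother supplied.

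Abundance is given in FPKM, the fragments on a transcript scaled by its length and by the mapped reads of the library, as the authors computed it with Cufflinks. Since length is taken into account, levels of different genes can be set side by side, and in a whole embryo fewer cells of a type and less RNA per cell cannot be told apart. Since a single read adds a fixed amount of FPKM to a gene model of given length, the reads behind a value could be recovered for models longer than the library fragments. Summed over all gene models, the recovered numbers were 1366640 to 3817533 in the embryos, 725865 to 1175462 in the technical libraries and 1505617 to 2922725 in the eggs. These sums also take in models shorter than the fragments, where the number comes out wrong. They are therefore rough and can overstate the reads mapped. Of the fixed marker lists, 20 of 21 tested gene models of gastrula genes (95.2%) were higher in embryos than in eggs. Of 28 tested models of maternal egg genes 11 (39.3%) were lower in embryos while 3 (10.7%) were higher. Over all gene models tested, 31.6% were higher in embryos and 25.2% lower. Of 8 models named for follicle cell genes 4 were at 0 in all 13 libraries, and their sum was 4.47 to 7.60 FPKM in embryos against 5.87 to 8.37 FPKM in eggs. Models named for blood genes summed to 23.5 to 45.8 FPKM in embryos against 108.7 to 155.7 FPKM in eggs, with 11 of 16 at 0 throughout. Of 27 models named for genes of differentiated tissues 18 were at 0 throughout, and the 2 that were tested were both higher in embryos, *ins* at 23.1 FPKM against 0 in eggs and a model that carries the name *actc1* beside 5 other gene names, with 34472 to 129913 FPKM in embryos, against 149141 FPKM in egg 5 and 433 to 1494 FPKM in the other eggs. The part of these in the results was not tested.

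Of the 21 gene models, 19 had a transcript of at least 200 bases, and they made up pairs for every gene except *nog*, which had 1. Below, copy 1 is the member of a pair on the scaffold with the lower number in the JGI 7.1 assembly used by the authors. The copies of a pair lay among partly the same neighbours: 9 named genes within 500 kb of *gsc* copy 1 recurred around copy 2, among them *dicer1* and *ppp4r4*, 10 recurred for *hhex*, 10 for *frzb*, 9 for *chrd*, 5 each for *otx2* and *cer1*, 4 for *fst*, and 1 each for *lhx1* (*aatf*) and *dkk1* (*prkg1*). *X. laevis* is an allotetraploid whose genes often persist as an L and an S copy, but which model is L and which is S was not determined here. The RefSeq v10.1 annotation lists only *cer1.S* for *cer1*, which had 2 models here. For *chrd* it lists 3 genes, *chrd.1.L*, *chrd.1.S* and *chrd.2.L*. The remaining 2 models were fragments. The short *lhx1* model shared exon bases with another gene model and was listed at 0 in all 13 libraries, and the short *chrd* model lay inside an intron of *chrd* copy 2.

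Transcripts of the organizer genes were close to absent from eggs and present in embryos. Over the 19 models of at least 200 bases, 8975 reads were recovered from the 5 embryos against 24 reads from the 5 eggs. Of the 21 models, 12 were at 0 in all 5 eggs, among them the short *lhx1* model, which was at 0 in every embryo too. The share of all gene models at 0 in all 5 eggs was not counted, so these 12 are given as a description only. For 18 of the 21 models every embryo lay above every egg (23.5% of all gene models tested showed this). Averaged over all embryos and eggs, 16 members reached 1 FPKM, the short *chrd* model among them, and each of the 16 was called higher in embryos (limma on log2(FPKM + 1), adjusted p under 0.05), where 31.6% of the 19373 gene models tested were called higher and 25.2% lower. The median log2 change of these 16 members was 4.26, beside 0.12 over all gene models tested. When no minimum level was asked, 20 members could be tested and all 20 were called higher, beside 22.4% of 32559 models. Members pass the minimum through their embryo values, so these counts describe the genes that could be tested and not all 21.

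**Figure D1:**
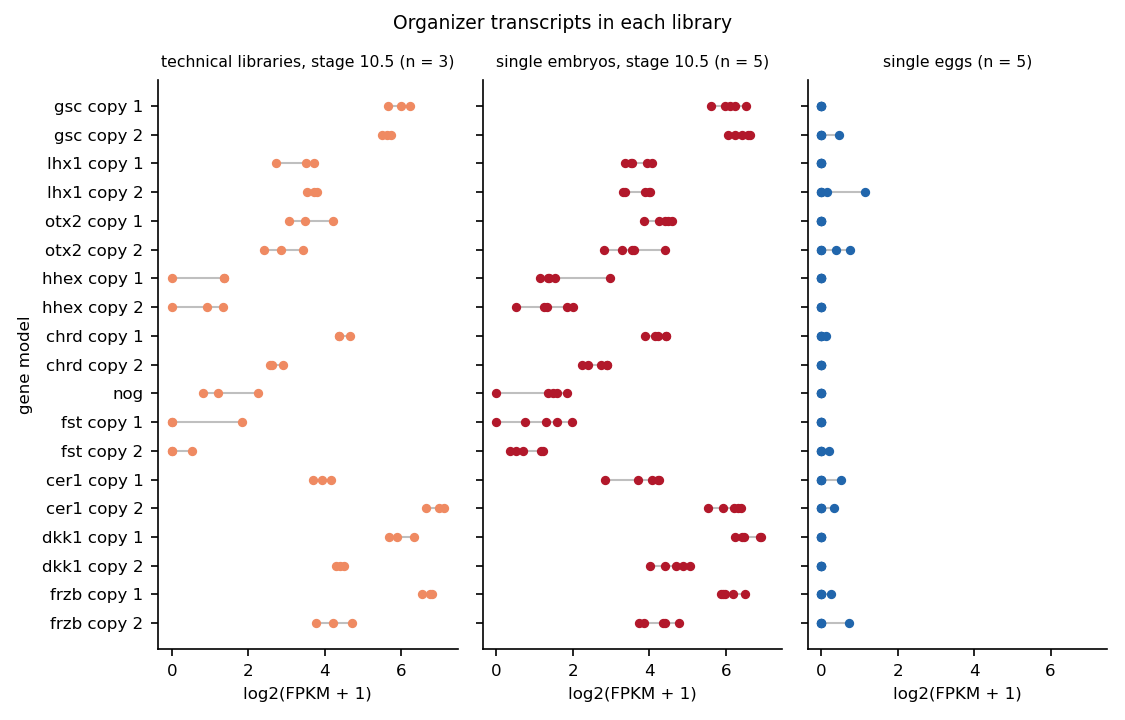
Level of each organizer gene model of at least 200 bases, as log2(FPKM + 1), in the 3 technical libraries of stage 10.5 embryos, the 5 single embryos and the 5 single eggs; each point is a library and the grey line spans the group. Eggs sit at 0 or close to it, with the highest egg value, 1.21 FPKM, in *lhx1* copy 2, and *hhex*, *nog* and *fst* are below 10 FPKM in every library, as is *chrd* copy 2.

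*gsc* encodes a homeodomain repressor and was the first gene known to be expressed in the dorsal lip. Copy 1 (scaffold 000039723, 669187 to 671978, plus strand, 3 exons) had 74.1, 91.2, 47.9, 61.5 and 67.4 FPKM in embryos 1 to 5 and 0 in all 5 eggs. Copy 2 (scaffold 000096659, 2742912 to 2747403, minus strand, 3 exons) had 98.5, 84.1, 73.9, 65.9 and 95.3 FPKM in embryos, against 0.384 FPKM in egg 4, which is 1 read, and 0 in the other eggs. The lowest embryo of either copy was far above the highest egg. The log2 change was 6.09 ± 0.19 for copy 1 (SE; limma adjusted p = 4.60e-10) and 6.29 ± 0.18 for copy 2 (limma adjusted p = 2.57e-10). In reads, copy 1 was at least 323-fold higher in embryos. Such a bound, here and below, sets the eggs to a floor of 3 reads over the group and takes the embryo reads as counted. The pooled ratio of copy 2 was 1078 with a 95% counting interval of 193 to 42605.

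*lhx1* (formerly *lim1*) encodes a LIM-homeodomain activator that works with the adaptor Ldb1. Its copies stood at the same level in embryos: copy 1 (scaffold 000003412, 1148682 to 1158324, plus strand, 5 exons) had 14.2, 15.7, 10.4, 9.25 and 10.6 FPKM in embryos and 0 in all eggs. Copy 2 (scaffold 000027891, 1820454 to 1831770, minus strand, 5 exons) had 13.8, 8.86, 15.2, 15.0 and 9.29 FPKM in embryos, against 0, 0, 1.21, 0 and 0.106 FPKM in eggs 1 to 5. Egg 3 stood apart with 8 reads, and it was the best covered egg value of any member, yet every embryo remained above it. On the log2 scale the increase was 3.68 ± 0.20 for copy 1 (limma adjusted p = 5.97e-08) and 3.45 ± 0.28 for copy 2 (limma adjusted p = 1.70e-06). Copy 1 was at least 68.2-fold higher in embryos, and the pooled ratio of copy 2 was 56.1 (95% counting interval 29.3 to 124). That ratio rests on egg 3: without this library it was 423 (75.6 to 16753).

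*otx2* encodes a bicoid-class homeodomain factor of the anterior organizer and the future head. Copy 1 (scaffold 000091950, 415491 to 417130, plus strand, 3 exons, coding bases only) had 21.5, 18.04, 20.2, 23.3 and 13.6 FPKM in embryos and 0 in all eggs. Copy 2 (scaffold 000133644, 1772020 to 1775230, plus strand, 3 exons) had 10.6, 8.70, 11.05, 20.4 and 6.04 FPKM in embryos, against 0, 0, 0, 0.673 and 0.307 FPKM in eggs. Embryo 4 was highest and embryo 5 lowest in both copies, and the egg values of copy 2 rested on 4 and 2 reads. The log2 change was 4.32 ± 0.19 for copy 1 and 3.30 ± 0.30 for copy 2 (limma adjusted p = 9.95e-09 and 4.11e-06), with a pooled read ratio of 51.0 for copy 2 (95% counting interval 23.2 to 140) and a bound of at least 59.2-fold for copy 1. Without egg 4, which held 4 of its 6 egg reads, the ratio of copy 2 was 121 (33.1 to 1001).

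*hhex*, a homeodomain repressor of the anterior endoderm next to the organizer, was the weakest of the transcription factors. Copy 1 (scaffold 000007555, 3123779 to 3136349, plus strand, 4 exons) had 1.88, 6.90, 1.22, 1.53 and 1.57 FPKM in embryos, and copy 2 (scaffold 000016863, 3513449 to 3531247, plus strand, 7 exons) had 0.426, 2.61, 1.38, 3.03 and 1.49 FPKM. Neither copy had a read in any egg, and these values rest on 1 to 6 reads per embryo for copy 1 and 2 to 7 reads for copy 2. The log2 change was 1.67 ± 0.34 for copy 1 (limma adjusted p = 0.00151), while copy 2 fell short of the minimum level and had a log2 change of 1.39 when all models were tested (limma adjusted p = 0.00161). Copy 1 reached the minimum level only with embryo 2: without this embryo its mean in embryos was 1.55 FPKM and its mean over the libraries left was 0.688 FPKM, so that it was no longer tested. With the embryo reads taken as counted (17 for copy 1 and 20 for copy 2), the bounds on the folds were 6.33 and 7.45. Neither bound includes the counting error of those reads.

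Chordin, noggin and follistatin bind BMP ligands (follistatin also activin) and keep them from their receptors. Chordin was the most abundant transcript of these 3 genes. *chrd* copy 1 (scaffold 000029016, 1255144 to 1272131, plus strand, 23 exons) had 20.6, 20.4, 16.7, 17.8 and 13.6 FPKM in embryos, against 0.0967 FPKM (1 read) in egg 1 and 0 in the other eggs. *chrd* copy 2 (scaffold 000076530, 236355 to 308621, minus strand, 24 exons) had 6.40, 4.25, 5.70, 6.40 and 3.73 FPKM in embryos and 0 in all eggs. Both were lowest in embryo 5, and no embryo overlapped an egg. On the log2 scale the increase was 4.19 ± 0.18 for copy 1 and 2.63 ± 0.21 for copy 2 (limma adjusted p = 8.93e-09 and 1.72e-06). By reads, copy 1 had a ratio of 1015 (95% counting interval 182 to 40133) and copy 2 was at least 107-fold higher. The short *chrd* model had 364, 186, 197, 124 and 255 FPKM in embryos and 0 in eggs, but a transcript shorter than the library fragments inflates FPKM and its reads could not be recovered, so it is given without a fold. It is one of the 16 members called, with a log2 change of 7.73 ± 0.25 (limma adjusted p = 6.81e-10).

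*nog* (scaffold 000100342, 354465 to 355943, minus strand, 2 exons) had 2.00, 0, 1.77, 2.59 and 1.53 FPKM in embryos and 0 in all eggs. *fst* copy 1 (scaffold 000052441, 11732946 to 11741315, plus strand, 7 exons) had 1.44, 0, 0.667, 2.93 and 2.02 FPKM in embryos and 0 in all eggs. *fst* copy 2 (scaffold 000337825, 3899437 to 3909633, plus strand, 6 exons) had 1.24, 0.632, 1.34, 0.42 and 0.289 FPKM in embryos, against 0.153 FPKM (1 read) in egg 4 and 0 in the other eggs. Embryo 2 had no read of *nog* or of *fst* copy 1, so these were the models of at least 200 bases in which an embryo overlapped the eggs. None of the 3 reached the minimum level. When all models were tested, the log2 change was 1.25 for *nog*, 1.12 for *fst* copy 1 and 0.75 for *fst* copy 2 (limma adjusted p = 0.00806, 0.0185 and 0.00579). By reads, the bound was 10.1-fold for *nog* (27 embryo reads) and 8.20-fold for *fst* copy 1 (22 embryo reads). Neither bound includes the counting error of the embryo reads. The pooled ratio of *fst* copy 2 was 24.6 with a counting interval of 3.98 to 1015.

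Cerberus binds Nodal, BMP and Wnt ligands, Dkk1 blocks the Wnt co-receptor Lrp6, and Frzb is a secreted Frizzled-related protein that binds Wnt ligands such as Wnt8. Each of these 3 genes had a copy between 67.7 and 96.5 FPKM on average in embryos. *cer1* copy 2 (scaffold 000185879, 2737221 to 2745768, plus strand, 3 exons) had 83.1, 59.3, 45.4, 72.4 and 78.1 FPKM in embryos, and copy 1 (scaffold 000045965, 256504 to 262450, plus strand, 3 exons) had 17.9, 6.10, 11.995, 15.6 and 17.5 FPKM. Egg 2 held a single read of each, at 0.26 FPKM for copy 2 and 0.428 FPKM for copy 1, and the other eggs had none. The log2 change was 6.003 ± 0.20 for copy 2 and 3.71 ± 0.29 for copy 1 (limma adjusted p = 8.35e-10 and 1.19e-06). Pooled read ratios were 1346 (95% counting interval 241 to 53202) for copy 2 and 172 (30.4 to 6843) for copy 1.

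*dkk1* was the only gene outside *hhex* and *nog* with no egg read in any copy. Copy 1 (scaffold 000018192, 2092114 to 2097103, plus strand, 4 exons) had 117, 88.0, 119, 84.9 and 73.8 FPKM in embryos, the highest mean of any member of at least 200 bases. Copy 2 (scaffold 000079772, 4092766 to 4097813, minus strand, 7 exons) had 32.2, 15.1, 24.997, 28.2 and 20.2 FPKM in embryos. With 0 in every egg, the copies were at least 421-fold and 138-fold higher in embryos, and their log2 changes were 6.58 ± 0.18 and 4.61 ± 0.22 (limma adjusted p = 1.52e-10 and 1.82e-08).

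*frzb* copy 1 (scaffold 000004321, 2512364 to 2525709, plus strand, 6 exons) had 62.0, 59.4, 58.0, 72.1 and 89.4 FPKM in embryos, against 0.201 FPKM (1 read) in egg 4 and 0 in the other eggs. Copy 2 (scaffold 000043242, 1119119 to 1131752, plus strand, 6 exons) had 20.1, 12.4, 13.5, 19.5 and 26.3 FPKM in embryos, against 0.652 FPKM (3 reads) in egg 1 and 0 in the other eggs. Embryo 5 was the highest in both copies, whereas it was the lowest of the 5 for both copies of *otx2* and *chrd* and for *dkk1* copy 1. On the log2 scale the increase was 6.04 ± 0.18 for copy 1 and 4.08 ± 0.25 for copy 2 (limma adjusted p = 2.57e-10 and 1.88e-07). Pooled read ratios were 1638 (95% counting interval 293 to 64725) for copy 1 and 167 (56.9 to 814) for copy 2.

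The egg reads were unevenly spread over the genes. Of the 24, *lhx1* copy 2 held 9 and *otx2* copy 2 held 6, and the other 9 fell on 7 models. In 6 models the egg signal was a single read. In 7 models all egg reads came from 1 egg, and without it the fold was at least 6.45 (*fst* copy 2) to at least 429.8 (*frzb* copy 1). 10 models of at least 200 bases had no egg read, with bounds from 6.33 (*hhex* copy 1) to 421 (*dkk1* copy 1) at this depth. Intervals cover counting error only, since PCR copies of a molecule could not be told from independent molecules. The bounds leave out the counting error of the embryo reads as well, so those of models with few embryo reads are the least firm.

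Summed over copies, the genes of the organizer differed widely in level in the embryo. *gsc* led with 151.9 ± 25.5 FPKM, followed by *dkk1* at 120.7 ± 24.7, *frzb* at 86.5 ± 18.3 and *cer1* at 81.5 ± 19.2 FPKM (SD, n = 5 embryos, here and in the next sentences). A middle group held *otx2* at 30.7 ± 8.77, *lhx1* at 24.4 ± 2.94 and *chrd* at 23.1 ± 3.61 FPKM. *hhex* at 4.40 ± 2.98, *fst* at 2.19 ± 1.009 and *nog* at 1.58 ± 0.97 FPKM were lowest. *nog* had a single model here where the RefSeq v10.1 annotation lists *nog.L* and *nog.S*, and the rank of *nog* below *fst* depends on this: per model, *nog* at 1.58 FPKM was above *fst* copy 1 at 1.41 and copy 2 at 0.783 FPKM. Within embryos the gaps from *cer1* to *otx2*, *chrd* to *hhex* and *fst* to *nog* were in the same direction in 5 of 5, whereas *gsc* was above *dkk1*, *dkk1* above *frzb*, *frzb* above *cer1*, *otx2* above *lhx1* and *hhex* above *fst* in 4 of 5 and *lhx1* above *chrd* in 3 of 5. The means of *frzb* and *cer1*, of *otx2* and *lhx1*, of *lhx1* and *chrd*, of *hhex* and *fst*, and of *fst* and *nog* differed by less than the larger of their SDs. Among all gene models at 1 FPKM or more in embryos, the members lay from percentile 6.84 of level (*fst* copy 1) to percentile 95.2 (*dkk1* copy 1).

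**Figure D2:**
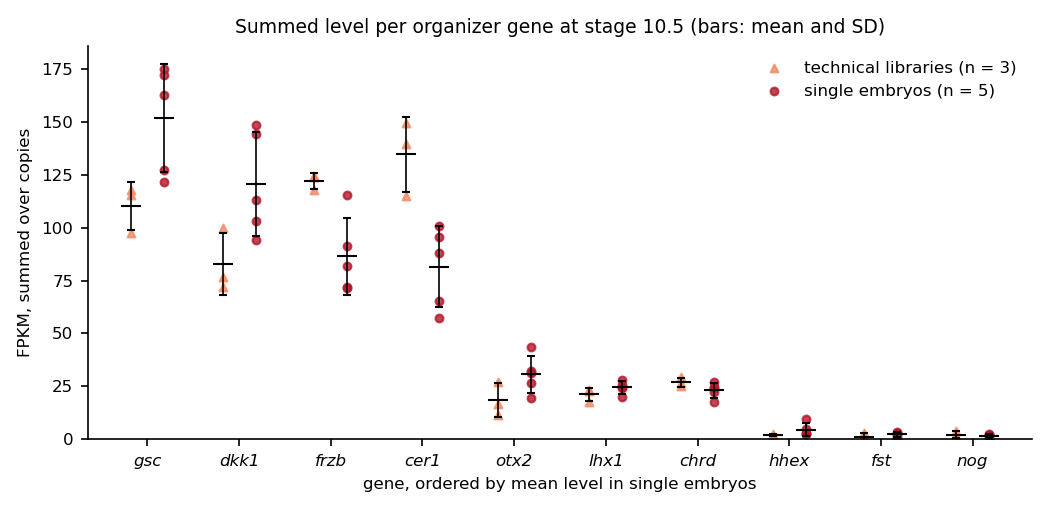
FPKM of each organizer gene summed over its copies, in the 3 technical libraries (triangles) and the 5 single embryos (circles) at stage 10.5, with the mean and SD as bars; genes are ordered by their mean in single embryos. *gsc* leads in single embryos at 151.9 FPKM and *cer1* in the technical libraries at 135 FPKM, and *hhex*, *fst* and *nog* are below 10 FPKM in every library.

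Whether both copies of a gene are used alike was asked within single embryos. In 5 pairs 1 copy was higher in every embryo. *dkk1* copy 1 exceeded copy 2 by a factor of 3.997 in mean FPKM, *frzb* copy 1 exceeded copy 2 by 3.72, *chrd* copy 1 exceeded copy 2 by 3.37 and *otx2* copy 1 exceeded copy 2 by 1.70, while *cer1* copy 1 had 0.205 times the level of copy 2. On the log2(FPKM + 1) scale the mean ratio of copy 1 to copy 2 was 1.97 ± 0.36 for *dkk1*, 1.87 ± 0.24 for *frzb*, 1.59 ± 0.27 for *chrd*, 0.80 ± 0.35 for *otx2* and -2.26 ± 0.48 for *cer1* (SD, n = 5). Each of these 5 ratios gave p = 0.0625 in a two-sided exact sign-flip permutation test over 5 embryos, the smallest value this design allows, so that 0.05 could not be reached. Adjusted over the 7 pairs planned (*chrd*, added once its short model was seen to be a fragment, stands outside) this was 0.109. The 3 technical libraries had the same copy higher in each of these 5 genes, in 3 of 3 libraries.

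The copies of *fst* were not compared, since copy 2 averaged 0.783 FPKM in embryos and 1 FPKM was asked of both. The other 3 pairs had no copy that was higher throughout. The log2 ratio was -0.30 ± 0.30 for *gsc*, where copy 1 was higher in 1 of 5 embryos (exact permutation p = 0.1875), -0.03 ± 0.56 for *lhx1* (3 of 5, exact permutation p = 1) and 0.28 ± 0.77 for *hhex* (3 of 5, exact permutation p = 0.4375). In the technical libraries *gsc* copy 1 was the higher in 3 of 3, with a mean log2 ratio of 0.33, so the direction for *gsc* turned with the set of libraries. Bases shared by copies can send a read to either, and the sequences themselves were not used here, so ratios between copies carry that uncertainty. The models of a pair also differ in annotated length. *otx2* copy 1 had 867 bases, all coding, and copy 2 had 2227, and their embryo reads were 159 and 274. *cer1* copy 1 had 1011 bases, all coding, and copy 2 had 1534, with 154 and 1204 embryo reads. *lhx1* copy 1 had 1418 bases and copy 2 had 3145, with 183 and 452 embryo reads. The part of model length in the FPKM ratios was not tested.

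**Figure D3:**
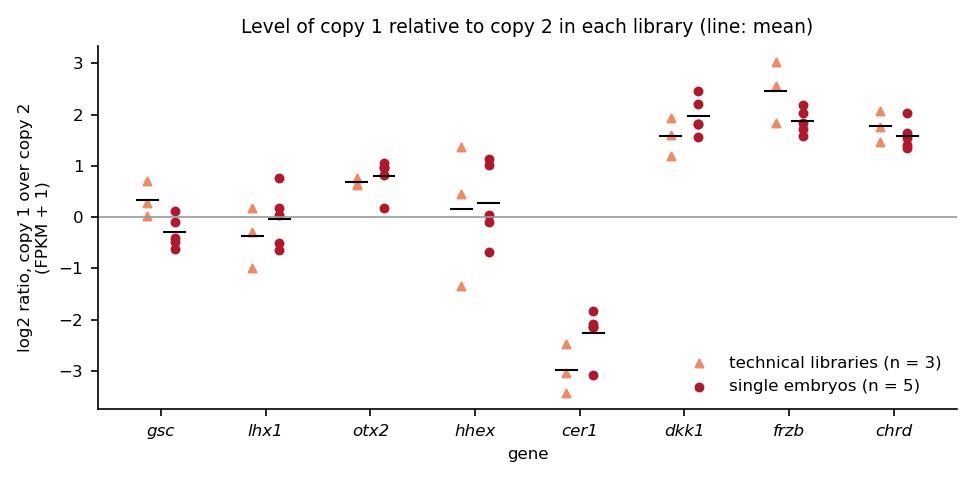
Log2 ratio of copy 1 to copy 2 (FPKM + 1) in each technical library (triangles) and each single embryo (circles) for 8 organizer genes; the short line is the group mean and the grey line marks equal levels. *dkk1*, *frzb*, *chrd* and *otx2* are above 0 and *cer1* is below 0 in every library, whereas *gsc* averages 0.33 in the technical libraries and -0.30 in single embryos.

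The spread of organizer transcripts among single embryos from the same mother was set beside that of other transcripts of like level. The 14 members with a mean of at least 5 FPKM had coefficients of variation (CV) over the 5 embryos of 16.1% (*chrd* copy 1) to 47.7% (*otx2* copy 2), with a median of 23.1%, and 7 of the 14 lay above the median CV of gene models of like level, which ran from 22.2% to 30.1%. *otx2* copy 2 had the highest CV of the 14, at percentile 89.1 among gene models of like level, with 20.4 FPKM in embryo 4 and 6.04 FPKM in embryo 5. Over the 3 technical libraries the CVs of these 14 ran from 7.76% (*dkk1* copy 2) to 44.8% (*otx2* copy 1). *otx2* copy 2 had 41.2% there, on 9 to 13 reads per library. What part of its spread lay between embryos was not tested. *chrd* copy 1 at percentile 24.4 and *gsc* copy 2 at percentile 30.7 (CV 16.6%) had the lowest CVs. Counting error alone gives a CV of 6.41% to 19.8% for these 14, and for *otx2* copy 1 it was 19.7% beside a measured 19.3%. The 4 members between 1 and 5 FPKM varied by 58.2% to 91.8%, where counting error alone gives 47.0% to 59.3%.

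**Figure D4:**
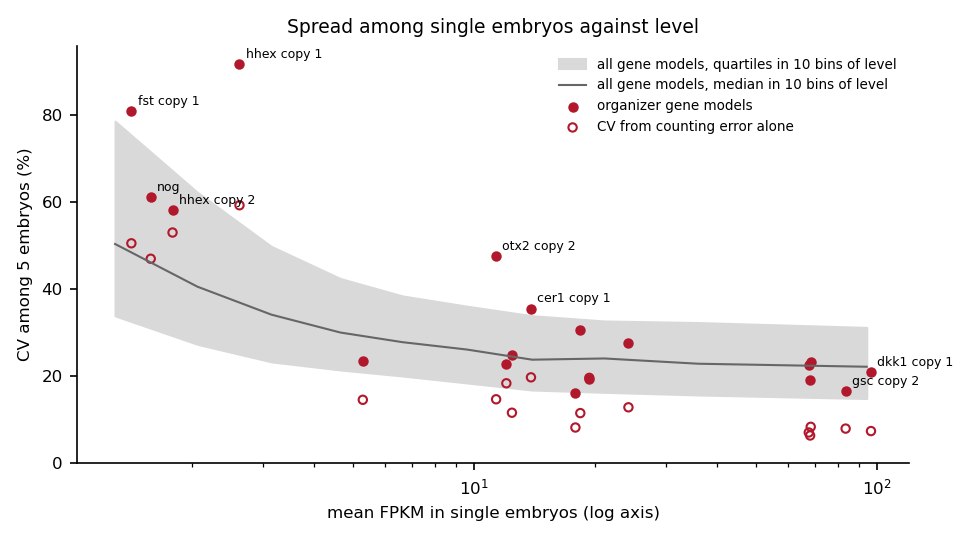
CV over the 5 single embryos against mean FPKM in embryos (log axis) for the 18 organizer gene models at 1 FPKM or more (filled circles), with the CV that counting error alone gives (open circles); the line and band are the median and quartiles of all gene models in 10 bins of level. From 5 FPKM up the members lie on either side of the line, 7 of 14 above it, with *otx2* copy 2 at 47.7% standing highest.

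The technical libraries were set against the single embryos, a comparison added after the values were seen. Their RNA source was not stated beyond the stage. The labels and the paper treat them as technical replicates, whether of 1 embryo or of a pool. The fit counts them as 3 separate samples, so that its p-values are too small. At adjusted p under 0.05, 4.91% of all gene models were called between these sets, and 1 of the 19 members tested. *gsc* copy 2 had 44.6, 48.4 and 52.5 FPKM in the technical libraries, below all 5 single embryos, with a log2 difference of -0.76 (limma adjusted p = 0.0453). *cer1* copy 2 had 138, 125 and 98.4 FPKM and *frzb* copy 1 had 107, 92.7 and 111 FPKM in the technical libraries, both above all 5 single embryos, and their log2 differences of 0.84 and 0.61 missed the threshold (limma adjusted p = 0.062 and 0.080). Of all gene models, 9.21% lay above and 8.71% below every single embryo in the technical libraries. The members, with 2 above and 1 below of 19 tested, were near these shares. Leaving out 1 library at a time gave between 0 and 3 calls among the members: 0 without any of embryos 1 to 4 or of the technical libraries, and 3 without embryo 5. The order of the summed genes differed between the sets, which restates the models just named and is not a further result. The summed ratio of *cer1* to *gsc* was 0.996 to 1.43 in the technical libraries and 0.373 to 0.691 in the single embryos. That of *frzb* to *gsc* was 1.06 to 1.21 in the technical libraries and 0.41 to 0.719 in the single embryos. These genes were picked because their models stood apart. *lhx1* had 17.7 to 23.3 FPKM in the technical libraries and 19.9 to 28.0 FPKM in single embryos, and *chrd* had 24.9 to 29.2 FPKM in the technical libraries and 17.4 to 27.0 FPKM in single embryos, so these sets overlapped. With the technical libraries in place of the embryos, 15 members passed the minimum and all 15 were called higher than in eggs (27.9% of all models were). The same limit on p-values holds for these calls.

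Other genes known from the organizer were looked at through fixed lists. Of 13 tested models of organizer transcription factors, 11 were higher in embryos and 1 lower, with a median log2 change of 3.79, where 31.6% of all gene models were higher and 25.2% lower. The 11 include a model filed under *otx5* through the name *crx* that carries many unrelated names. Both copies of *foxa4*, a forkhead gene of the notochord, rose most, to 280 ± 57.0 and 198 ± 26.9 FPKM in embryos against 0 in all eggs (log2 change 8.11 and 7.63, limma adjusted p = 2.20e-11 and 1.74e-11). A model of *otx1*, a relative of *otx2*, had 10.03 ± 3.44 FPKM in embryos against 29.1 ± 8.38 FPKM in eggs (log2 change -1.46, limma adjusted p = 0.000459). Of 21 tested models of further secreted and surface proteins of the organizer, 17 were higher and 1 lower (median 2.98; 31.6% and 25.2% over all gene models). *admp*, a BMP-like ligand made in the organizer itself, averaged 155 ± 23.6 and 56.3 ± 14.1 FPKM in its 2 models in embryos and was at 0 in all eggs (log2 change 7.27 and 5.80). *pcdh8*, a paraxial protocadherin, reached 81.8 ± 12.7 FPKM in embryos against 0 in eggs. The model that was lower carries the names *sfrp2*, a Wnt binder, and *mcts1*, an unrelated gene, and had 29.0 ± 6.04 FPKM in embryos against 114 ± 17.9 FPKM in eggs. Another model with both names was not called, at 53.4 ± 10.3 FPKM in embryos against 49.6 ± 12.1 FPKM in eggs (log2 change 0.12, limma adjusted p = 0.624). Both tested models named *sfrp2* alone rose, to 16.1 ± 2.93 FPKM in embryos against 0.441 ± 0.81 FPKM in eggs and to 4.31 ± 1.03 FPKM against 0 (log2 change 3.69 and 2.39).

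The ligands and receptors that the organizer proteins act on were taken by pathway. For Wnt partners, 10 of 15 tested models were higher and 2 lower in embryos (median 2.13; 31.6% and 25.2% over all gene models). *wnt8a*, the ventrolateral Wnt ligand, averaged 213 ± 64.0 and 52.5 ± 14.1 FPKM in embryos against 0 in all eggs (log2 change 7.69 and 5.70). The models of *wnt11*, a maternal vegetal transcript, went both ways. The longer had 39.7 ± 15.2 FPKM in embryos against 70.0 ± 10.9 FPKM in eggs (log2 change -0.87), and the shorter had 39.0 ± 20.1 FPKM in embryos against 10.1 ± 18.5 FPKM in eggs (log2 change 3.26, limma adjusted p = 0.0220), where egg 4 stood at 42.6 FPKM, the mean of the other eggs was 1.93 FPKM, and the call was lost in 4 of 10 fits that left out 1 library (egg 1 or 2, embryo 3 or 5). A model of *wnt5a* had 1.02 ± 0.90 FPKM in embryos against 5.15 ± 4.51 FPKM in eggs (log2 change -1.52), and the egg mean was 3.15 FPKM without egg 3. For Nodal and activin partners, 13 of 17 were higher and 3 lower (median 2.39; 31.6% and 25.2% over all gene models): *gdf3* reached 824 ± 158 FPKM in embryos against 0.0724 ± 0.162 FPKM in eggs, *lefty*, a Nodal inhibitor, 39.6 ± 4.58 FPKM against 0, and both models of the receptor *acvr1b* fell, to 11.8 ± 5.11 FPKM against 33.8 ± 4.02 FPKM and to 5.86 ± 1.76 FPKM against 16.9 ± 6.85 FPKM. For BMP partners, 12 of 32 (37.5%) were higher and 4 (12.5%) lower, with a median of 0.47, so that the share of higher models was near the 31.6% over all gene models. *bmp4* rose in both models, to 41.9 ± 14.5 FPKM in embryos against 1.00 ± 0.88 FPKM in eggs and to 10.6 ± 3.29 FPKM against 0.204 ± 0.455 FPKM (log2 change 4.48 and 3.29). The *bmp7* models differed. One had 438 ± 172 FPKM in embryos against 7.98 ± 2.95 FPKM in eggs, and another rose to 5.23 ± 1.64 FPKM against 0. A model that also carries the name *ttc1* was not called, at 35.2 ± 9.32 FPKM in embryos against 32.1 ± 8.40 FPKM in eggs (limma adjusted p = 0.647). Nor was a model that also carries the name *bmp5*, at 9.64 ± 4.48 FPKM against 6.72 ± 2.24 FPKM (limma adjusted p = 0.213). A model of sizzled (*szl*), a ventral feedback inhibitor of chordin proteases, had 94.1 ± 27.5 FPKM in embryos against 0.0703 ± 0.157 FPKM in eggs. Another *szl* model was present in eggs and rose, to 158 ± 52.4 FPKM in embryos against 15.96 ± 12.7 FPKM in eggs (log2 change 3.88). Models of the chordin protease *bmp1* were among the 4 that were lower, at 2.099 ± 0.26 FPKM in embryos against 5.98 ± 3.0 FPKM in eggs for the longer, while the call of the shorter was lost in 8 of 10 fits that left out 1 library.

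The factors upstream of the organizer genes were called in shares near those of all gene models. Of 48 tested models of β-catenin pathway components, Nodal effectors and Lhx1 cofactors, 14 (29.2%) were higher and 13 (27.1%) lower in embryos, beside 31.6% and 25.2% over all gene models, with a median of -0.27. *foxh1*, which brings Smad proteins to Nodal target genes, fell to 24.2 ± 3.67 and 5.43 ± 0.66 FPKM in embryos, against 104 ± 14.7 and 36.2 ± 9.75 FPKM in eggs (log2 change -2.06 and -2.50). The *ctnnb1* (β-catenin) models fell at 2 loci, 3 overlapping models at log2 changes of -0.79 to -1.64 and another at -0.69, and a model that also carries the names *ccnd1*, *krt8* and *ctnnd1* was higher at 0.63. *ldb1*, the adaptor of Lhx1, was present in eggs and rose, to 17.1 ± 1.83 FPKM in embryos against 10.7 ± 3.64 FPKM in eggs and, in another model, to 6.97 ± 1.89 FPKM against 3.43 ± 2.03 FPKM (log2 change 0.68 and 0.93, limma adjusted p = 0.0166 and 0.0211); the call of the lower model was lost without embryo 3 (limma adjusted p = 0.0523). The largest rises were those of *eomes*, a T-box activator, at 9.90 ± 2.98 FPKM in embryos, and *lef1*, a β-catenin partner, at 9.21 ± 4.53 FPKM, both against 0 in eggs. All values after ± in these lists are SD over 5 embryos or 5 eggs, and the members of a list share these 10 libraries.

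**Figure D5:**
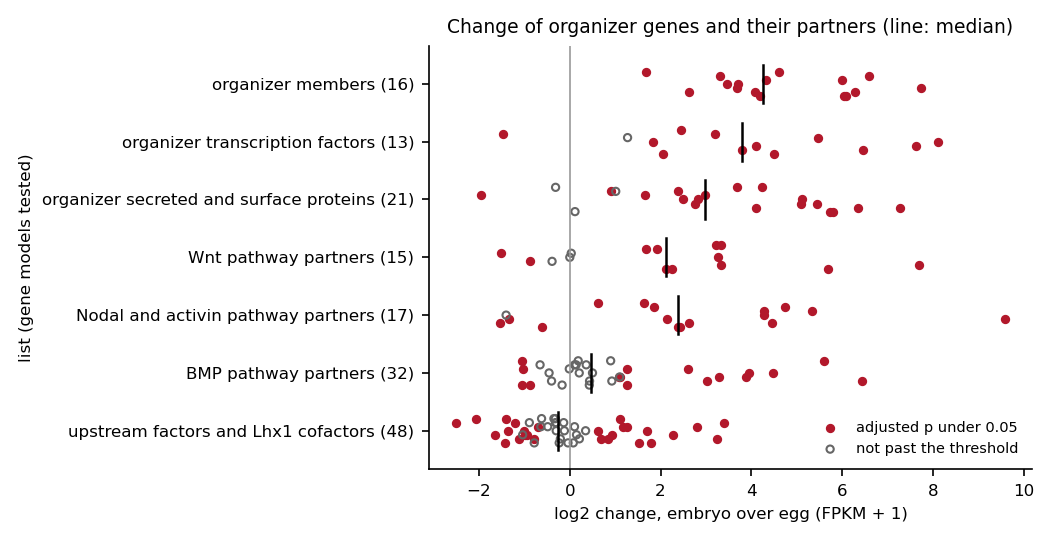
Log2 change, embryo over egg on log2(FPKM + 1), of every tested gene model in the organizer genes described here and in 6 lists of partners; filled points passed adjusted p under 0.05, open points did not, and the black line is the median of each list. Medians run from 4.26 for the organizer genes through 2.13 for Wnt partners and 0.47 for BMP partners to -0.27 for upstream factors and Lhx1 cofactors.

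The profile of the members over the 10 single libraries was shared by many other genes. Among 7584 gene models with a gene name and at least 10 FPKM in embryos, 175 had a Pearson r above 0.99 with the members' mean log2(FPKM + 1), a likeness set almost entirely by the step between stages and given as a description only. The closest were *gfod1* (10.2 ± 0.81 FPKM in embryos), *lefty* (18.7 ± 2.46), *bix2* (216 ± 25.2), a model named *cirbp* (59.9 ± 10.6) and *ccnd1* (57.3 ± 11.1 FPKM; SD, n = 5), each at 0 in all eggs and with r from 0.9991 to 0.9997.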

How the data were processed

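Per the labels and the study's methods, RNA of single eggs and embryos was depleted of rRNA, fragmented and sequenced as short strand-specific single-end reads, which the authors mapped to the JGI 7.1 genome with gmap. The deposited values are FPKM per gene model, computed by the authors with Cufflinks 2.1.1. Profiles that the authors merged by stage and thinned to like read numbers served as an alternative only. Columns were matched to samples by name.

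From the deposited FPKM, gene models averaging 1 or more in the 10 egg and embryo libraries were tested as log2(FPKM + 1) with limma 3.58.1 (R 4.3.3; trended eBayes, Benjamini-Hochberg adjustment over all models tested, threshold 0.05). Fold changes on this scale understate those of low genes. Reads were recovered from the FPKM steps with an effective length for fragments of 200 ± 80 bases, and 88.4% to 91.8% of low values came out whole within 0.1 read per library. Where the eggs held no read, the fold was bounded with 3 egg reads over the group and the embryo reads as counted. Otherwise the ratio has an exact 95% interval. Copies were compared by an exact sign-flip test. On simulated normal values, 200 of 19373 models were changed. Of those changed by 2 on the log2 scale 77% were called, and of those changed by 1, 32%, with 8 of 117 calls false. In the data 11002 models were called, so these rates describe the simulation and not the comparison of embryo with egg.

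The members and lists were chosen with earlier results of these data known. Every model of the 10 names was described. From each list the 2 largest rises and 2 largest falls among called models were named, besides *ldb1*, *bmp4*, *wnt8a*, *admp*, *ctnnb1* and the 5 models most like the members. Further models of *szl*, *bmp7*, *sfrp2* and *wnt11* were given as well. Alternatives were other pseudocounts and filters, another scaling, leaving out each library, the replicate number as a block and the technical libraries. No sequence of the members was used here.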

Additional observations from a re-analysis of the deposited data

Results flagged for a closer look

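In 20 groups of 5 libraries and 10 summed genes, 2 gene models had a library far from the others of its group (gap over range above 0.71). The rule is meant to mark about 1 in 20 groups by chance. That rate was not checked for low read counts with many zeros, so the 2 are not read as an excess. *lhx1* copy 2 had 1.21 FPKM (8 reads) in egg 3, against 0 to 0.106 FPKM in the other eggs. *hhex* copy 1 had 6.90 FPKM in embryo 2, against 1.22 to 1.88 FPKM in the other embryos. Groups whose highest library held fewer than 5 reads were not looked at.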

How the results depend on the processing

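The number of members called higher ran from 14 to 20 over 17 alternatives, and each of the 16 log2 changes kept its direction and its side of the threshold in every alternative in which the model was tested. With the technical libraries in place of the embryos, the *gsc* copy ratio reversed to 0.33, and the cause was not tested. The median CV over the technical libraries was 16.8%, but libraries labelled technical replicates do not measure spread among single embryos. Leaving out 1 embryo gave *lhx1* copy ratios of -0.23 to 0.12 and a median CV of 20.2 to 24.9%. With a minimum of 5 FPKM, which leaves fewer models to test, 1 BMP partner and 1 Wnt partner were called lower, 6 Wnt partners and 8 Nodal partners higher. Leaving out 1 library gave 1 to 2 secreted proteins and 2 to 4 BMP partners called lower, and 0 to 3 members called between technical libraries and embryos. The replicate numbers did not pair the libraries (r of same-numbered deviations -0.02 to 0.07, 2 of 5 highest with their own number), and with the replicate block 10661 instead of 11002 models were called. Another scaling shifted libraries by less than 0.1 on the log2 scale (-0.03 to 0.02 in embryos and 0.08 to 0.09 in eggs). Depth limits *hhex*, *nog* and *fst*, with at most 12 reads per embryo.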
